A study of Mus musculus with 4 samples.

Results

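The genes described are 10 classical targets that the glucocorticoid receptor (GR, encoded by Nr3c1) switches on: Tsc22d3, Zbtb16, Klf9, Per1, Dusp1, Errfi1, Ddit4, Sgk1, Nfkbia and Tnfaip3. They were taken by symbol from a table of 23997 genes, and all 10 were found in it. Each of them reached at least 1 FPKM (a fragment count corrected for transcript length and library size) in at least 1 condition, as did 11445 genes in all. The cells were cultured lung endothelial cells of C57BL/6 mice in EBM-2 medium with 10% serum. They formed 4 conditions: control siRNA, control siRNA + DEX, GR siRNA, and GR siRNA + DEX, where every culture carried an siRNA for 48 h and DEX is dexamethasone, a synthetic glucocorticoid, given at 100 nM for 18 h. All 4 conditions therefore shared serum and transfection, and the conditions without DEX were not free of serum; other supplements of the medium were not given in the sources used here.

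GR is held in the cytoplasm by chaperones until a glucocorticoid binds it. It then enters the nucleus and binds DNA, in its best known form as a dimer on a palindrome of TGTTCT hexamers, the glucocorticoid response element (GRE). Many of the genes it induces encode brakes on other pathways: inhibitors of NF-kappaB, phosphatases of MAP kinases, and repressors of growth signals. In endothelium these products are known for limiting the response to inflammatory cytokines.

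The table holds 1 column of values per condition, although the submitters describe 3 replicates of each. No spread between replicates can be computed, so every difference given is between single columns and has no test. The columns summed to between 537772 and 566610 FPKM. From genes under 0.1 FPKM, the control siRNA column was estimated as the shallowest, at a relative depth of 0.671 against GR siRNA. That estimate takes each column as 1 library, which is not known, and the number of reads is unknown. Nr3c1 itself stood at 14.4, 14.3, 5.45 and 5.32 FPKM in control siRNA, control siRNA + DEX, GR siRNA and GR siRNA + DEX. The knockdown thus left 37.9% of the mRNA without DEX and 37.1% with DEX. Nr3c2, the mineralocorticoid receptor, which can also bind glucocorticoids, was at or below 0.127 FPKM in every condition. All 10 endothelial markers were measured, with summed levels, without and with DEX, of 2683 and 2692 FPKM in the control columns and of 2429 and 2367 FPKM in the GR siRNA columns. Most of that gap lay in Cldn5, a tight junction protein (493 and 525 FPKM against 368 and 332), and Egfl7, a secreted endothelial factor (521 and 516 against 424 and 410). The median siRNA difference of the 10 markers on the log2(FPKM + 1) scale was −0.05 without DEX and −0.03 with DEX, and Kdr, a VEGF receptor, was higher with GR siRNA in both states (0.16 and 0.12). Fibroblast and mural markers summed to 8.2 and 7.873 FPKM in the control columns and to 14.53 and 12.97 FPKM in the GR siRNA columns, with 3 of 10 above 1 FPKM in any condition and Rgs5 listed at 0. Lung epithelial markers summed to between 7.633 and 8.601 FPKM, with Sftpa1 listed at 0. Of the leukocyte markers, Cd68, a lysosomal protein also made outside leukocytes, gave nearly all of the sum (161 to 218 FPKM), while Ptprc, Cd3e and Marco were listed at 0 throughout.

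Promoter windows of RefSeq (build GRCm38.p6, the same assembly as mm10) were available for 9 of the 10 genes, in 19 windows of 300 bases, each from 250 bases before an annotated start to 50 after it. Zbtb16 had none. The windows printed are those that hold a match to a GRE, a cyclic AMP response element (CRE) or an NF-kappaB site, because these name the signals known to act on the genes. All are written 5′ to 3′ on the gene's strand, with the match in capitals.

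Sgk1 holds the full GRE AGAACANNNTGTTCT, which reads the same on both strands, in the fifth of its 6 windows (chr10:21993640-21993939, plus strand), from 189 to 175 bases before the start. The capitals mark that palindrome.
Sgk1: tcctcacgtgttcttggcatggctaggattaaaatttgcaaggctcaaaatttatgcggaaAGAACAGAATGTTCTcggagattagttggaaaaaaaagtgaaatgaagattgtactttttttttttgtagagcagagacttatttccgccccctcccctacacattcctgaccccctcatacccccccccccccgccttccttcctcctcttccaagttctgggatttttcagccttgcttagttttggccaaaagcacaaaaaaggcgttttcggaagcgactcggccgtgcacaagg

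Dusp1 (chr17:26508423-26508722, minus strand) and Errfi1 (chr4:150854820-150855119, plus strand, the second of its 2 windows) each hold the CRE TGACGTCA, also its own reverse complement, marked in capitals. In Dusp1 it starts 143 bases before the annotated start, and in Errfi1 51 bases before it.
Dusp1: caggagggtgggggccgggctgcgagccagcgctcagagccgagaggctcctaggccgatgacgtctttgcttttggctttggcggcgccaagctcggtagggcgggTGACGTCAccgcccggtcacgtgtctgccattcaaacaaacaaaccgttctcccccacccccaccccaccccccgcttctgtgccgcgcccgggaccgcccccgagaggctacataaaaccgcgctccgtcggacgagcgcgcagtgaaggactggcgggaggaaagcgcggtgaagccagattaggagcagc
Errfi1: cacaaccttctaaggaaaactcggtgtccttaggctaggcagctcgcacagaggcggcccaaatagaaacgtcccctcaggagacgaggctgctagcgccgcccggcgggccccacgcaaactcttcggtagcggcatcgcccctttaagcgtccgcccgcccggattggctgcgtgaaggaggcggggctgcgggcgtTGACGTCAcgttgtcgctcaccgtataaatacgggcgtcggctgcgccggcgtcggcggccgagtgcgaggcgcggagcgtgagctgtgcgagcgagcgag

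Nfkbia (chr12:55492598-55492897, minus strand) and Tnfaip3 (chr10:19015361-19015660, minus strand, the first of its 2 windows) each hold the NF-kappaB form GGGNNTTTCC on the opposite strand, in capitals, from 29 and from 12 bases before the start.
Nfkbia: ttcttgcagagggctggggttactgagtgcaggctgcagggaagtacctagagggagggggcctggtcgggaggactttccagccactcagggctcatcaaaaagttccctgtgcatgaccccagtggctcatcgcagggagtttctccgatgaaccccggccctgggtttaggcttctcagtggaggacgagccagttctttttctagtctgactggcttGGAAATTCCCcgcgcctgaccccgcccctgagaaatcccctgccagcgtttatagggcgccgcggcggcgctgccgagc
Tnfaip3: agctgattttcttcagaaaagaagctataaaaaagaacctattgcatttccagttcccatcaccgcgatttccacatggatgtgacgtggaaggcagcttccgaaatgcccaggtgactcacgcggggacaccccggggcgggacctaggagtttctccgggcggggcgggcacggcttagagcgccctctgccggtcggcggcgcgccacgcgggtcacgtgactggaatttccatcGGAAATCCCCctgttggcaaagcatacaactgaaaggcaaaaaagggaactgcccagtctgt

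Against these windows stands how often each motif occurs in all 32851 RefSeq promoter windows of this length, searched on both strands. The full GRE was in 3 of them, or 0.00913%: in Sgk1, in Acnat2, which was listed at 0 FPKM in all 4 conditions, and in the predicted gene Gm35041, which was not matched to the expression table. Its looser core GNACANNNTGTNC, which lies within the full element, was in 0.475% of all windows and among the 9 genes again only in Sgk1. The single hexamer TGTTCT, which the full element also contains, was in 19.0% of all windows and in those of 3 genes (Sgk1, Tnfaip3 and Tsc22d3). CRE matches were in 1.79% of all windows and in 2 of the 19 windows of the 9 genes, and NF-kappaB matches in 1.63% and also in 2 of 19. The E-box CACGTG, bound by clock factors and MYC, was in 7.15% of windows and in those of Dusp1, Per1, Sgk1 and Tnfaip3. Matches to the AP-1 form TGANTCA were in 7.81% of windows and in those of Klf9 and Tnfaip3, and the TATA box core TATAAA was in 13.6% and in those of 4 genes (Errfi1, Nfkbia, Sgk1 and Tnfaip3). Among the 10943 windows of genes that passed the filter on low values, the shares were 0.274% for the looser core, 12% for the hexamer, 3.07% for the CRE, 10.2% for the E-box, 5.04% for AP-1, 6.78% for TATA and 1.66% for NF-kappaB. All shares are per window, and the 9 genes had 19 windows, so their gene counts cannot be read directly against them. A match describes letters only, and GR is known to act largely from distal sites, which these windows do not cover.

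**Figure D1:**
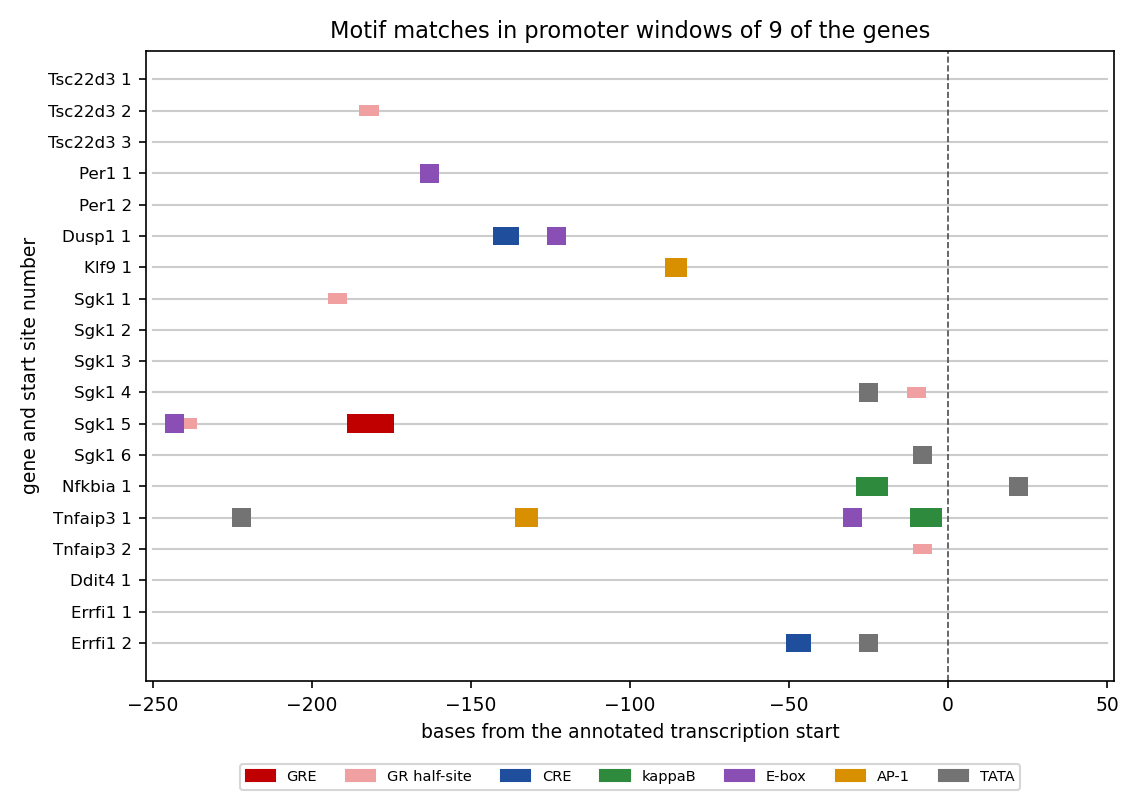
Positions of motif matches in the 19 RefSeq promoter windows of 9 genes, in bases from the annotated transcription start (dashed line); each row is a start site and each coloured block a match on either strand. The only full GRE is in Sgk1, CRE blocks are in Dusp1 and Errfi1, and NF-kappaB blocks are in Nfkbia and Tnfaip3.

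The levels of the 10 genes spanned a wide range. In the control siRNA column the order was Sgk1, Ddit4, Nfkbia, Dusp1, Tsc22d3, Klf9, Errfi1, Per1, Zbtb16 and Tnfaip3, from 645 FPKM down to 3.16 FPKM, a ratio of 204. Sgk1 and Ddit4 alone made up 75.2% of the summed FPKM of the 10. Sgk1 ranked 119th and Ddit4 216th among the 11445 genes measured, whereas Zbtb16 and Tnfaip3 were at percentiles 18.9 and 15.6. With GR siRNA the order differed at 3 places: Dusp1 stood above Nfkbia, Klf9 above Tsc22d3, and Tnfaip3 above Zbtb16, and the ratio of the highest to the lowest level was 547. With no replicates, neighbours as close as Nfkbia (99.4 FPKM) and Dusp1 (97.2 FPKM) in the control siRNA column cannot be placed in order.

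**Figure D2:**
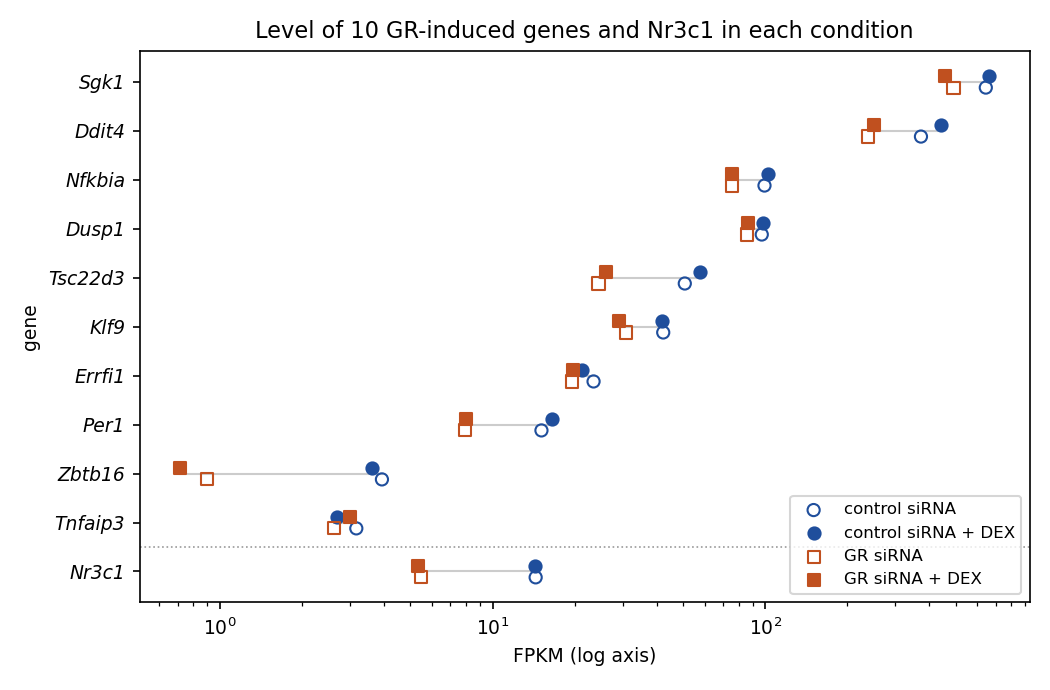
FPKM on a log axis for the 10 genes, ordered by their control siRNA level, and for Nr3c1 below the dotted line; blue circles show control siRNA, orange squares GR siRNA, and filled symbols the cultures with DEX. Both squares lie left of both circles for 9 of the 10 genes, and Tnfaip3, between 2.61 and 3.16 FPKM, is the one where they mix.

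GR siRNA was compared with control siRNA to ask how far these targets depend on the amount of receptor. All 10 were lower with GR siRNA without DEX, beside 52.5% of all genes, and 9 of 10 with DEX, beside 51.6%. At least 1.5-fold lower on the log2(FPKM + 1) scale, the threshold used for a call, were Zbtb16, Tsc22d3, Per1 and Ddit4, the same 4 genes in both DEX states. Of these, Zbtb16 was under 1 FPKM in both GR siRNA columns and passed the filter on low values only through its control columns. After rescaling the columns to the same total, Ddit4 without DEX was at −0.57, short of the threshold, which left 3 of 10 called in that state. Among all 11445 genes, 2.52% passed that threshold downward without DEX and 2.61% with DEX, and 1.63% in both states. None of the 10 was 1.5-fold higher, as 2.34% of all genes were in each state. The same rescaling moved the split of all genes to 2.32% lower and 3.58% higher without DEX, and to 2.67% and 3.34% with DEX. The median difference of the 10 was −0.42 without DEX and −0.52 with DEX, where that of all genes was −0.01 in both. In whole cultures, fewer cells that express a gene and less RNA per cell cannot be told apart, and Cldn5, Egfl7 and the fibroblast and mural sum given above differed with the siRNA; their part in these differences was not tested.

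For 9 of the 10 genes both GR siRNA columns lay below both control siRNA columns. This held for 36.6% of all genes, and the reverse, which none of the 10 showed, for 32.3%. The DEX states are different conditions and not replicates, so the count describes the columns only.

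**Figure D3:**
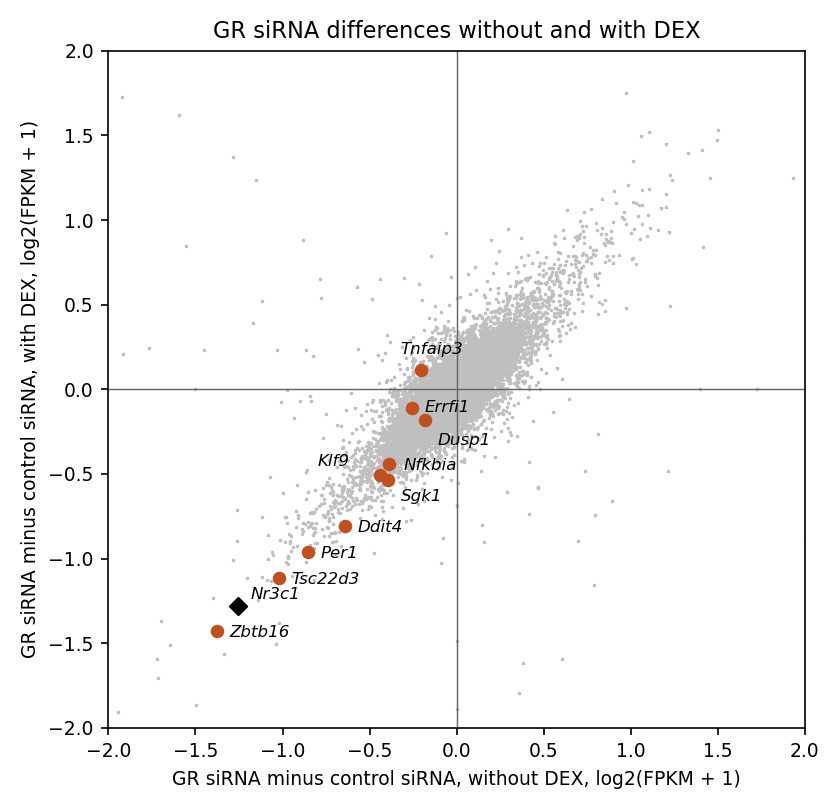
Difference between GR siRNA and control siRNA in log2(FPKM + 1) without DEX (horizontal) and with DEX (vertical) for all measured genes (grey; 125 lie beyond the axes), the 10 targets (orange) and Nr3c1 (black diamond). The 2 axes share no column; Zbtb16, Tsc22d3, Per1 and Ddit4 lie farthest to the lower left of the 10, and only Tnfaip3 lies above 0 on the vertical axis.

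Among the transcriptional regulators, Zbtb16 differed most. This zinc finger repressor, also called PLZF (chromosome 9, 48654297 to 48836222, minus strand, mm10), was at 3.93 FPKM with control siRNA, 3.61 with control siRNA + DEX, 0.897 with GR siRNA and 0.715 with GR siRNA + DEX. The 2 GR siRNA values were below the lowest control value by a wide margin, and they were 22.8% and 19.8% of their controls. Both were also under the minimum of 1 FPKM, so the gene passed the filter on low values only through its control columns. On the log2 scale the differences were −1.38 and −1.43, the 50th and 67th lowest of all genes. With a pseudocount of 0.1 FPKM in place of 1 FPKM they were −2.02 and −2.19, since the larger value compresses a gene of this level.

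Tsc22d3 encodes GILZ, a leucine zipper protein that binds NF-kappaB and AP-1 and dampens their activity. The gene lies on the X chromosome (140539528 to 140600659, minus strand). It was at 50.7 FPKM with control siRNA, 57.9 with control siRNA + DEX, 24.5 with GR siRNA and 26.2 with GR siRNA + DEX. The GR siRNA columns held 48.3% and 45.2% of the control values, with log2 differences of −1.02 and −1.12, and ranked 78th and 79th from the lowest. Within each siRNA arm the DEX column was the higher of the pair.

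Per1 encodes a repressor of the circadian clock, whose transcription glucocorticoids are known to reset (chromosome 11, 69095217 to 69109960, plus strand). Its levels were 15.1 FPKM with control siRNA, 16.5 with control siRNA + DEX, 7.91 with GR siRNA and 7.99 with GR siRNA + DEX. The GR siRNA values were 52.3% and 48.4% of the controls and did not overlap with them (log2 differences −0.85 and −0.96). Klf9, a Krüppel-like factor that binds GC-rich DNA (chromosome 19, 23141226 to 23168134, plus strand), was at 42.3 FPKM with control siRNA, 41.8 with control siRNA + DEX, 30.85 with GR siRNA and 29.2 with GR siRNA + DEX. It too was lower in both GR siRNA columns, at 73.0% and 69.8% of the controls, and did not reach 1.5-fold (−0.44 and −0.50).

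Of the genes that restrain or relay kinase signals, Ddit4 had the largest difference. It encodes REDD1, which restrains the mTOR complex through the TSC proteins (chromosome 10, 59949669 to 59951834, minus strand). It stood at 373 FPKM with control siRNA, 439.9 with control siRNA + DEX, 238 with GR siRNA and 251 with GR siRNA + DEX. Both GR siRNA values were well under both control values, at 63.9% and 57.1% of them (log2 differences −0.64 and −0.81).

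Sgk1, the serum- and glucocorticoid-regulated kinase, is known for control of sodium transport and cell survival (chromosome 10, 21882184 to 21999903, plus strand). Levels of 645, 664, 491 and 457 FPKM were found with control siRNA, control siRNA + DEX, GR siRNA and GR siRNA + DEX. The gene with the full GRE in a promoter window, shown above, was thus at 76.1% of its control without DEX and 68.9% with DEX (−0.39 and −0.54), a smaller difference than in the 4 genes past 1.5-fold. The table gives 1 value per gene, so the level from the start site beside the GRE is unknown.

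Dusp1 encodes a phosphatase that inactivates MAP kinases (chromosome 17, 26505590 to 26562128, minus strand). It was at 97.2 FPKM with control siRNA, 98.3 with control siRNA + DEX, 85.6 with GR siRNA and 86.6 with GR siRNA + DEX. The 4 values formed 2 close pairs, and the GR siRNA pair was at 88.1% of the control in each DEX state (−0.18 in each). About 20.4% of all genes had a lower difference than Dusp1 without DEX and 19.7% with DEX. An exon of Ergic1 overlaps annotated Dusp1 exons on the other strand, and with the strand setting not given in the sources used here, fragments of the 2 genes there cannot be told apart.

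Errfi1 encodes MIG6, an inhibitor of the EGF receptor family (chromosome 4, 150853919 to 150868892, plus strand). Its 4 levels were 23.5 FPKM with control siRNA, 21.3 with control siRNA + DEX, 19.5 with GR siRNA and 19.7 with GR siRNA + DEX. The GR siRNA columns were the lower ones, at 83.2% and 92.4% of the controls (−0.25 and −0.11), and the control columns differed from each other more than the GR siRNA columns did. Dusp1 and Errfi1, whose CRE-bearing windows are printed above, were among the 3 genes with the smallest mean difference.

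The 2 inhibitors of NF-kappaB differed from each other. Nfkbia encodes I-kappa-B alpha, which holds NF-kappaB in the cytoplasm (chromosome 12, 55489410 to 55492647, minus strand). It was at 99.4 FPKM with control siRNA, 103 with control siRNA + DEX, 75.7 with GR siRNA and 75.5 with GR siRNA + DEX, or 76.1% and 73.4% of the controls (−0.39 and −0.44). Tnfaip3 encodes a ubiquitin-editing enzyme that shuts off signalling to NF-kappaB (chromosome 10, 19000910 to 19015657, minus strand). Its levels were 3.16 FPKM with control siRNA, 2.69 with control siRNA + DEX, 2.61 with GR siRNA and 2.99 with GR siRNA + DEX. The control and GR siRNA values of Tnfaip3 overlapped, at 82.5% of the control without DEX and 111% with DEX (−0.21 and 0.11). Both genes carry the NF-kappaB match printed above.

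DEX was compared with no DEX within each siRNA arm to ask how far added ligand moved the targets. None of the 10 reached 1.5-fold in either direction in either arm. Among all genes, 0.673% were 1.5-fold higher and 0.384% lower with DEX in control siRNA cells, and 0.524% higher and 0.638% lower in GR siRNA cells. Of the 10, 6 were higher with DEX in control siRNA cells, beside 47.3% of all genes, and 6 were higher in GR siRNA cells, beside 47.9% (3 after rescaling the columns to the same total). The medians of the 10 were 0.03 and 0.01. The size of the difference was typically 0.11 in control siRNA cells and 0.08 in GR siRNA cells (medians over the 10), where all genes had 0.05 and 0.07.

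The highest DEX difference among the 10 was that of Ddit4 in control siRNA cells, 118% of the level without DEX (0.24 on the log2 scale, 198th from the top of all genes). Tsc22d3 followed with 114% (0.19, 338th), and Per1 with 109% (0.12, 878th). Ddit4 and Tsc22d3 were above the 95th percentile of all genes, which was 0.145, and Tnfaip3, at 85.1% (−0.17), was below the 5th, which was −0.144. In GR siRNA cells the 3 genes that had been highest stood at 105% (Ddit4), 107% (Tsc22d3) and 101% (Per1) of the level without DEX. None of the 10 lay outside the 5th to 95th percentile there, −0.167 to 0.199. Ddit4, Tsc22d3 and Per1 were picked as the highest in control siRNA cells. With single columns, that choice alone can make their values lower in the other arm. Whether their DEX differences depended on the receptor was not tested.

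**Figure D4:**
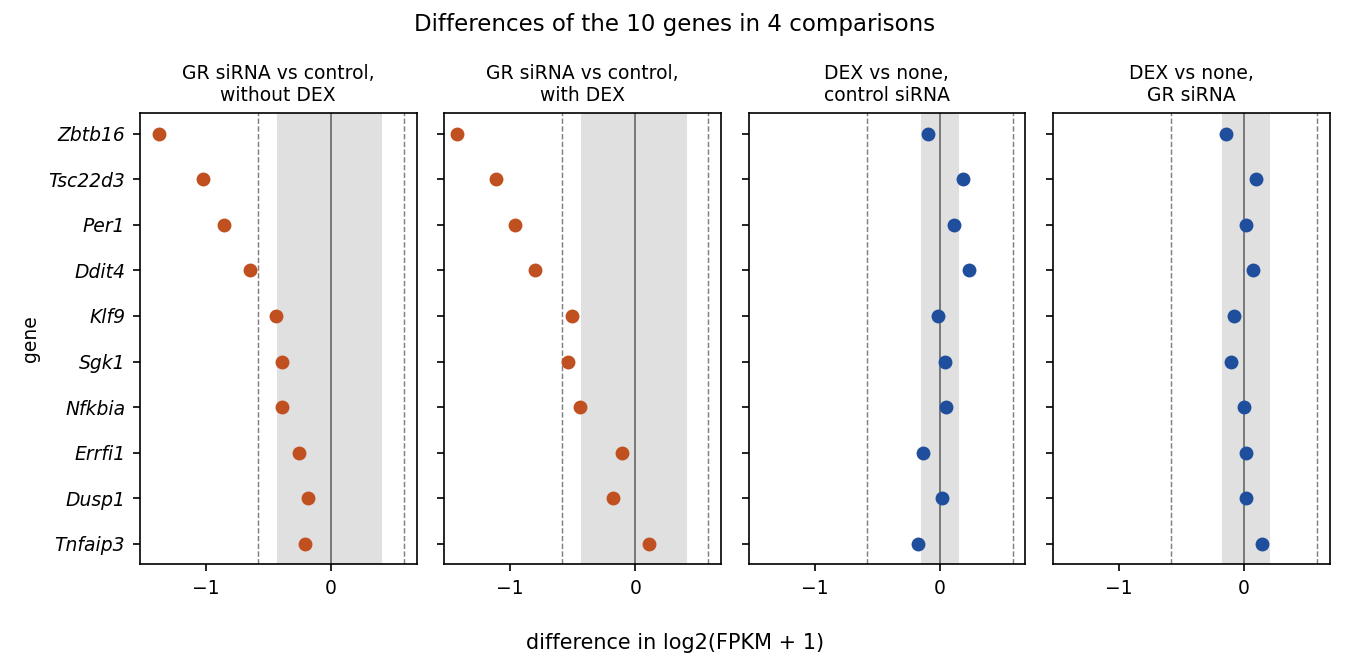
Difference in log2(FPKM + 1) of each gene in the 4 comparisons, with genes ordered by their mean GR siRNA difference; the grey band spans the 5th to 95th percentile of all 11445 genes and the dashed lines mark 1.5-fold. Below the band lie 5 genes without DEX and 7 with DEX in the siRNA panels, and all DEX differences lie within the dashed lines, from −0.17 to 0.24.

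Sgk1 and Dusp1 were nearly level between DEX states with control siRNA, at 103% and 101%. In GR siRNA cells they stood at 93.2% and 101%. Zbtb16 was lower with DEX in both arms, at 92.0% and 79.8% of the level without it, as was Klf9 at 99.0% and 94.7%. Ddit4, Tsc22d3, Per1 and Dusp1, 4 of the 10, were higher with DEX in both arms, beside 23.1% of all genes; after rescaling the columns to the same total, Per1 and Dusp1 were lower with DEX in GR siRNA cells (−0.03 each). For 8 of the 10 both siRNA differences were larger in size than both DEX differences, the exceptions being Tnfaip3 and Errfi1, and the same held for 46.5% of all genes.

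The difference between the DEX differences, control siRNA minus GR siRNA, had a median of 0.06 over the 10 and ran from −0.32 in Tnfaip3 to 0.16 in Ddit4. After rescaling to the same total the median was 0.12, while that of all genes moved to 0.04. None passed 1.5-fold, as 0.961% of all genes did upward and 0.751% downward. For 7 of the 10 the siRNA difference was larger in size with DEX than without, as it was for 49.6% of all genes.

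Beyond the 10 genes, a list of 44 other genes known to be induced through GR was read in the same columns, and 34 of them reached 1 FPKM. Lower by 1.5-fold with GR siRNA were 9 without DEX and 7 with DEX, beside 2.52% and 2.61% of all genes. Higher were 3 in each state, beside 2.34%. In both states 7 were lower and 3 higher, as were 1.63% and 1.37% of all genes. The list medians were −0.11 and −0.09, nearer to 0 than those of the 10. Rasd1, a Ras-like GTPase, was at 4.82 FPKM with control siRNA, 5.51 with control siRNA + DEX, 2.01 with GR siRNA and 2.36 with GR siRNA + DEX. Map3k6, a MAP kinase kinase kinase, was at 24.4 FPKM in both control siRNA columns and at 14.5 and 13.1 FPKM in the GR siRNA columns. Sult1a1, a sulfotransferase, ran from 1.83 and 1.79 FPKM to 0.494 and 0.591 FPKM. Both GR siRNA values of Sult1a1 were under 1 FPKM, so it passed the filter on low values only through its control columns. The 3 that were higher were Angptl4, Tfcp2l1 and Mfsd2a, of which the latter pair was named after its values were seen; Tfcp2l1 was at 1.03 and 1.05 FPKM in the control columns and at 2.55 and 2.23 FPKM in the GR siRNA columns. At any size, 20 of the 34 were lower with GR siRNA without DEX and 21 with DEX, beside 52.5% and 51.6% of all genes. Of the 10 genes, all were lower without DEX, and all but Tnfaip3 with DEX. The 10 genes and this list were chosen with earlier results of these data known, and the part of that choice in the contrast was not tested.

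Close family members of the 10 differed less. Of 40 listed, 34 reached 1 FPKM. Lower by 1.5-fold were 1 without DEX (Sgk2) and none with DEX, beside 2.52% and 2.61% of all genes. None was higher, beside 2.34% in each state. The medians of the 34 were −0.08 and −0.11. Sgk2 was at 9.15 and 8.69 FPKM in the control columns and at 5.35 and 6.24 FPKM in the GR siRNA columns. Beside Tsc22d3, Tsc22d1 was at 340.4 and 356 FPKM in the control columns and 286 and 299 FPKM in the GR siRNA columns, and Tsc22d4 at 39.6 and 42.1 against 32.2 and 30.8 FPKM. Beside Per1, Per2 was at 1.06 and 1.03 FPKM in the control columns and at 0.493 and 0.470 FPKM in the GR siRNA columns, while Per3, which did not reach 1 FPKM, was at 0.477 and 0.492 against 0.983 and 0.881 FPKM. Per2 passed the filter on low values only through its control columns. Nfkbid, a nuclear relative of Nfkbia, was at 6.96 and 6.23 against 4.45 and 4.02 FPKM. In the Dusp family Dusp16, which acts on JNK, was at 10.4 and 10.04 against 8.23 and 8.03 FPKM, and Dusp8 at 4.81 and 5.07 against 6.12 and 6.27 FPKM.

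The proteins that the 10 act on or with were represented by 39 genes, 37 of them measured. Of these, 1 was 1.5-fold lower without DEX and 2 with DEX, beside 2.52% and 2.61% of all genes. None was higher, beside 2.34% in each state, and the medians of the 37 were −0.09 and −0.07. The gene lower in both states was Chuk, which encodes IKK-alpha, a kinase upstream of NF-kappaB, at 35.1 and 36.3 FPKM with control siRNA and 21.9 FPKM in both GR siRNA columns. Nfkb1, an NF-kappaB subunit, was at 30.2 and 30.1 against 20.6 and 18.96 FPKM (−0.53 without DEX, short of the threshold, and −0.64 with DEX, past it). Rela, the partner subunit, was at 46.0 and 46.3 against 45.8 and 42.2 FPKM. Nedd4l, a ubiquitin ligase that Sgk1 phosphorylates, was at 2.06 and 2.08 against 2.996 and 3.03 FPKM. Mtor was at 6.71 and 6.29 against 7.52 and 6.72 FPKM, Tsc2 at 21.4 and 21.3 against 22.8 and 21.96 FPKM, and Egfr, the best known target of Errfi1, did not exceed 0.0440 FPKM in any column. Mapk14, a MAP kinase that Dusp1 dephosphorylates, was at 70.7 and 70.5 against 59.0 and 56.7 FPKM.

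**Figure D5:**
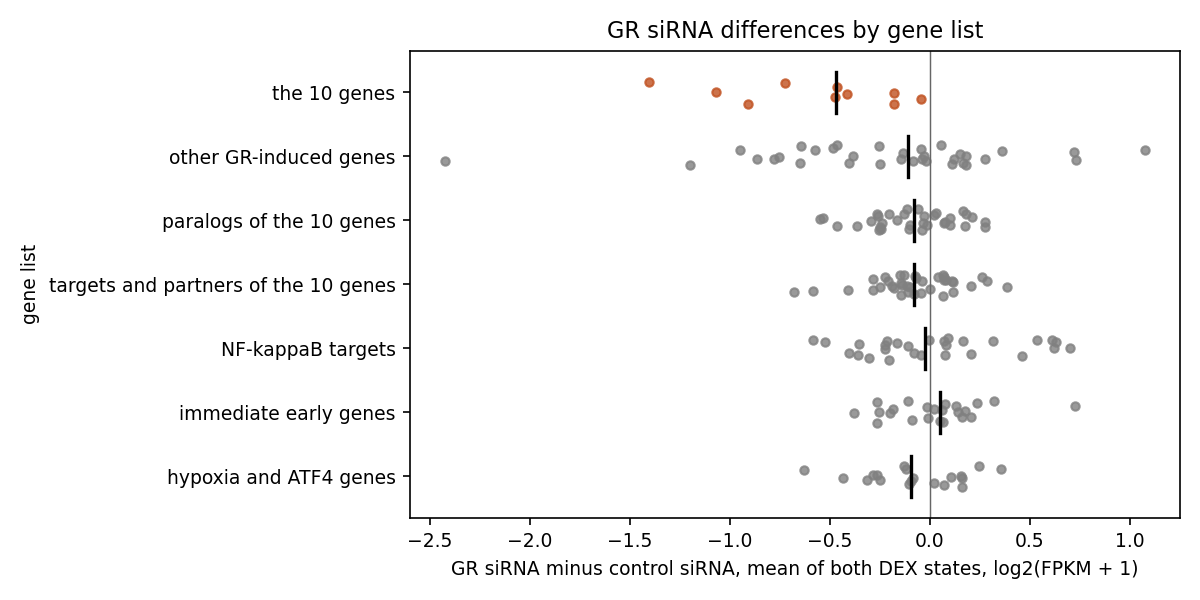
Mean of the GR siRNA differences in both DEX states, in log2(FPKM + 1), for each measured gene of 7 lists; points are genes, the vertical position within a list is random, and black bars are list medians. The median is −0.47 for the 10 genes and between −0.11 and 0.05 for the other lists, and genes can stand in more than 1 list.

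Several of the 10 are also induced by NF-kappaB, by serum and growth factors, or by hypoxia and amino acid stress, and the genes of those programmes were read for comparison. Of 28 measured NF-kappaB targets other than Nfkbia and Tnfaip3, 1 was 1.5-fold lower (Cxcl10, named after its values were seen) and 1 higher (Selp) with GR siRNA without DEX, and 1 was lower (Nfkb1) and 6 higher with DEX. Among those 6, Ccl7 (also named after its values were seen) reached 1 FPKM only with GR siRNA + DEX, at 1.085 FPKM. Of all genes, 2.52% were 1.5-fold lower and 2.34% higher without DEX, and 2.61% and 2.34% with DEX. The medians of the 28 were −0.07 and −0.01. Traf1, an adaptor of TNF receptors, was at 14.0 and 13.5 FPKM in the control columns and 20.9 and 22.2 FPKM in the GR siRNA columns. Ccl2, a monocyte chemokine, was at 33.75 and 24.4 FPKM with control siRNA, without and with DEX, and at 41.6 and 47.9 FPKM with GR siRNA. Sele, the endothelial adhesion molecule E-selectin, was at 11.04 and 10.7 against 16.3 and 16.04 FPKM. While Traf1, Ccl2 and Sele were higher in both GR siRNA columns, 14 of the 28 were lower in both than in both control columns. Both GR siRNA columns were above both control columns for 9. Of all genes, 36.6% were below and 32.3% above in this way. With DEX in control siRNA cells, 20 of the 28 were lower and 8 higher, and in GR siRNA cells 14 were lower and 14 higher. Of all genes, 47.3% were higher with DEX in control siRNA cells and 47.9% in GR siRNA cells. The median DEX differences of the 28 were −0.04 and 0.01. These are descriptions with no test of the difference.

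Immediate early genes, with 23 of 25 measured, had medians of 0.06 and 0.03. None was 1.5-fold lower with GR siRNA, beside 2.52% of all genes without DEX and 2.61% with DEX. Fosb, a subunit of AP-1, was 1.5-fold higher without DEX, as were 2.34% of all genes. It was at 6.67 and 12.9 FPKM with control siRNA, without and with DEX, and at 14.1 and 18.3 FPKM with GR siRNA. It was also 1.5-fold higher with DEX than without in control siRNA cells, as were 0.673% of all genes. Btg2 and Junb were lower in both GR siRNA columns, Btg2 at 19.95 and 19.7 against 14.8 and 15.2 FPKM and Junb at 56.5 and 53.5 against 44.4 and 46.8 FPKM. Among 19 genes of the hypoxia and ATF4 responses, the stress pathways that also induce Ddit4, the medians were −0.09 and −0.10, and only Pdk1 passed 1.5-fold, downward and with DEX (−0.68, and −0.58 without DEX, just short of the threshold). Of all genes, 2.61% passed the threshold downward with DEX. Atf4 was at 306.8 and 291 FPKM in the control columns and 253 and 245 FPKM in the GR siRNA columns. Adm, encoding adrenomedullin, was at 6.02 and 5.12 against 3.93 and 3.77 FPKM.

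The genes nearest to Tsc22d3 in profile were sought among 8623 plainly named genes of at least 5 FPKM (no predicted, clone-named, small RNA or joined symbols), by Euclidean distance between log2(FPKM + 1) values centred over the 4 columns. The nearest were Plat (distance 0.0749), Spsb1 (0.110), Rasd1 (0.128) and Mpp3 (0.128). Plat, which encodes tissue plasminogen activator, differed by −1.12 and −1.11 with GR siRNA and by 0.10 and 0.11 with DEX. Spsb1 was at 15.5 and 17.0 FPKM in the control columns and at 7.57 and 7.37 FPKM in the GR siRNA columns, and Mpp3 at 10.1 and 10.6 against 4.67 and 4.66 FPKM. Nearest to the median profile of the 10 were Ttc4, Erf, Gdpd1 and Gnpat, at distances from 0.0127 to 0.0203. Erf, an ETS repressor, was at 45.7 and 45.8 FPKM in the control columns and at 33.8 and 31.7 FPKM in the GR siRNA columns. A likeness over 4 columns is a description, and many genes can share so short a profile.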

How the data were processed

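RNA sequencing values were deposited as FPKM per gene, 1 column for each of 4 conditions. Per the submitters' processing notes, TopHat2 and Cuffdiff were used on mm10; versions, annotation, strand setting and the treatment of the 3 stated replicates were not given in the sources used here. Depth could only be estimated as a ratio between columns, since read counts are gone. It was read from the value of a single fragment in genes under 0.1 FPKM, which takes each column as 1 library.

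Genes of at least 1 FPKM in at least 1 column were compared on log2(FPKM + 1) and called at 1.5-fold, with no test. The 10 genes formed 1 of 12 gene lists (257 entries, 244 different symbols). These lists and 8 motifs were chosen with earlier results of these data known. The genes named are the 10, Nr3c1 and Nr3c2, stated partners, and the 4 nearest profiles. Fkbp5, which is among the other GR-induced genes, was a stated partner but was left out. Of the markers, the highest or those at 0 are named, with Cldn5, Egfl7, Kdr, Dcn and Col3a1. From each other list, up to 6 genes with the largest absolute mean GR siRNA difference were to be named, but some were left out. Those left out include the genes with the largest difference among the other GR-induced genes. Coordinates are from GENCODE M21 (mm10, 1-based); at most 1.75% of the 31-mers of any of the 10 occur in another gene. Counting was tested on simulated data, with genes of at least 5 FPKM and changes larger than the threshold. That test does not cover lower genes or calls near 1.5-fold. Python 3.11.15, numpy 2.4.6 and pandas 2.3.3 were used. Alternatives were a pseudocount of 0.1 FPKM, no filter or 5 FPKM, 3 rescalings, folds of 1.25 and 2, and a background of plainly named genes.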

Additional observations from a re-analysis of the deposited data

Results flagged for a closer look

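Signs differed between arms for 4 of the 10 genes under DEX, as they did for 48.8% of all measured genes. The difference of the DEX differences, control siRNA minus GR siRNA, was 0.14 for Sgk1, which was higher with DEX in control siRNA cells and lower in GR siRNA cells, and 0.05 for Nfkbia in the same order. It was −0.32 for Tnfaip3 and −0.15 for Errfi1, which were lower with DEX in control siRNA cells and higher in GR siRNA cells. The GR siRNA difference of Tnfaip3 was negative without DEX and positive with DEX, and the gap between them was also −0.32; 21.5% of all genes had opposite signs in this contrast. After rescaling, the signs of Errfi1 (same total) and Nfkbia (upper quartile) in GR siRNA cells turned. With 1 column per condition none of these differences was tested.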

How the results depend on the processing

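No paired analysis was possible because each condition has 1 column, so no replicate could be left out or used as a block either. The number of genes called lower with GR siRNA depended on the fold: in each DEX state 4 of 10 passed 1.5-fold, 2 passed 2-fold (beside 0.708% of all genes without DEX and 0.769% with DEX) and 7 passed the lowest fold tried (beside 8.77% and 8.65%). Rescaling to the same total lowered the count without DEX from 4 to 3, since Ddit4 moved from −0.64 to −0.57; the median difference of the DEX differences over the 10 moved from 0.0566 to 0.1153. After rescaling to the same total, which moved the median of all genes by at most 0.0699, the median DEX difference of the 10 in GR siRNA cells was −0.0347 in place of 0.013. Values of single genes in that comparison turned too: Dusp1 to −0.0325, Errfi1 to −0.0357 and Per1 to −0.0336 with the same rescaling, and Nfkbia to 0.0069 with upper quartile rescaling. The difference of the DEX differences of Dusp1 turned to 0.0019 with median-of-ratios scaling and 0.0488 with the common total. All are near 0, and no counting error can be given without read counts. With a minimum of 5 FPKM, Zbtb16 and Tnfaip3 were left out. Many counts of the 10 were 0 at every setting, so how often they moved cannot be set against the shares of all genes. Some of those shares moved by over 1.5 times. With GR siRNA they were 1.65% lower and 1.54% higher without DEX, and 1.69% lower with DEX, when no filter was used, 3.65% and 3.78% higher with the smaller pseudocount, 0.778% and 0.568% higher at 2-fold, and 7.68% and 7.77% higher at the lowest fold. With DEX, 0.437% were higher and 0.252% lower in control siRNA cells, and 0.336% and 0.414% in GR siRNA cells, when no filter was used. At the lowest fold 0.891% were lower with DEX in control siRNA cells, and 1.27% higher and 0.97% lower in GR siRNA cells. Over plainly named genes alone the DEX shares fell to 0.0755% higher and 0.0849% lower in control siRNA cells, and to 0.179% and 0.0377% in GR siRNA cells. The difference of the DEX differences passed the threshold upward in 0.104% and downward in 0.283% of plainly named genes, upward in 0.638% of genes with no filter, downward in 1.14% with the smaller pseudocount, and in 1.97% and 2.35% at the lowest fold.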
